A study of Vitis vinifera and Vitis vinifera
Schisandra chinensis with 13 samples.

Results

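The most strongly cleaved transcripts of a grapevine degradome library were examined, together with the miRNAs named at their cleavage sites. A degradome library holds the 5′ ends of uncapped RNA fragments, so that reads pile up at the position where a miRNA has guided a cut. The members were chosen by their raw degradome reads, as the detected sites with at least 20 in 1 pooled library. They made up 348 of 8858 listed pairs of miRNA and transcript, of which 1559 were detected. Related miRNAs that name the same position were counted once per transcript, which left 126 sites on 119 transcripts of 59 loci, out of 926 detected sites on 840 transcripts of 416 loci. The sites were named by 91 miRNA entries with 79 different sequences, in 24 known families and 1 candidate miRNA, PC-5p-284876_17.

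The study compared Vs hybrids, which are Vitis vinifera 'Hongruibao' scions grown on Schisandra chinensis rootstocks, with Vv plants of the same cultivar. It calls the Vv plants self-rooted and also self-grafted. Both groups were sampled 25 years after grafting and grown in the same area. Each of 3 plants per group gave pooled RNA of leaf, phloem and ripe berry, and from each pool came 1 RNA-seq and 1 small RNA library. The degradome library was titled and typed as Vv in its labels, but its source was given as all samples mixed, and the study's methods describe equal parts of the 6 samples. Its reads therefore cannot be assigned to Vs hybrids, to Vv plants or to an organ, and it has no replicate. In the pooled tissue, a change in the share of an organ and a change of RNA within an organ cannot be told apart.

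Plant miRNAs are short RNAs, mostly of 21 or 22 nt, that pair almost completely with their targets and guide ARGONAUTE to cut the target opposite bases 10 and 11 of the miRNA. Conserved families are known from Arabidopsis to cut mRNAs of transcription factors, auxin receptors and the small RNA machinery itself. Guides of 22 nt can also start the production of secondary small RNAs from the cut transcript, a property known for miR482, which cuts disease resistance genes in many plants, and for miR828, which cuts MYB transcription factor mRNAs. miR3624 and miR3634 are families described from grapevine.

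The sequences of the leading guides are shown because these few families held most of the cleavage reads. They are printed 5′ to 3′ as listed in the deposited tables, with the seed (bases 2 to 8) in capitals. The first set gives 1 guide for each of the 4 families with most reads, with all 3 guides of the miR482 family.
vvi-miR3634-3p: tTTCCGACtcgcactcatgccgt
mtr-miR482-3p_L+1_2ss8TA20GT: tCTTACCAacacctcccattcc
sly-miR482e-3p_2ss5TG20AT: tCTTGCCTactcctcccattcc
vvi-miR482: tCTTTCCTactcctcccattcc
vvi-miR828a: tCTTGCTCaaatgagtattcca
vvi-miR3624-3p: tCAGGGCAgcagcatactact
The 3 miR482 guides had 3 different seeds, which are all different from the seed of miR828a. The second set holds guides at hormone, transcription factor and small RNA machinery targets.
vvi-miR393a_R+1: tCCAAAGGgatcgcattgatcc
vvi-miR403a: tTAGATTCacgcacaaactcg
vvi-miR162: tCGATAAAcctctgcatccag
vvi-miR168: tCGCTTGGtgcaggtcgggaa
vvi-miR166a_R+2_1: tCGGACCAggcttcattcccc
vvi-miR160c: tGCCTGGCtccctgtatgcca
The third set holds guides whose level in Vs hybrids and Vv plants is described in detail further on, or whose sites stand a few bases apart.
vvi-miR164a: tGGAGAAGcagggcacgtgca
vvi-miR169v: aAGCCAAGgatgaattgccgg
tcc-miR530b_L+2R-1_1: tCTGCATTtgcacctgcacct
tcc-miR530b_R+1_1ss9CT: tGCATTTGtacctgcacctta
mes-miR828a_L+1: cTCTTGCTcaaatgagtattcca

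Cleavage reads were concentrated in few families. Raw reads were the whole-number counts at a position, and normalized reads were those counts divided by the authors over the transcripts that a read maps to. The 126 sites held 21876.9 of the 23057.1 normalized reads at detected sites, or 94.9%, and 0.0953% of the 22945508 sequenced degradome reads. miR3634 guided 23.1% of the members' normalized reads (95% Wilson interval 22.6 to 23.7%), miR482 17.8% (17.3 to 18.3%), miR828 17.02% (16.5 to 17.5%) and miR3624 14.3% (13.8 to 14.7%). These intervals cover counting error only. Together these 4 families held 72.2% of the reads, at 20 of the 59 loci. They were followed by miR393 with 6.28% and miR403 with 4.57%, while 8 families held under 100 normalized reads each.

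**Figure D1:**
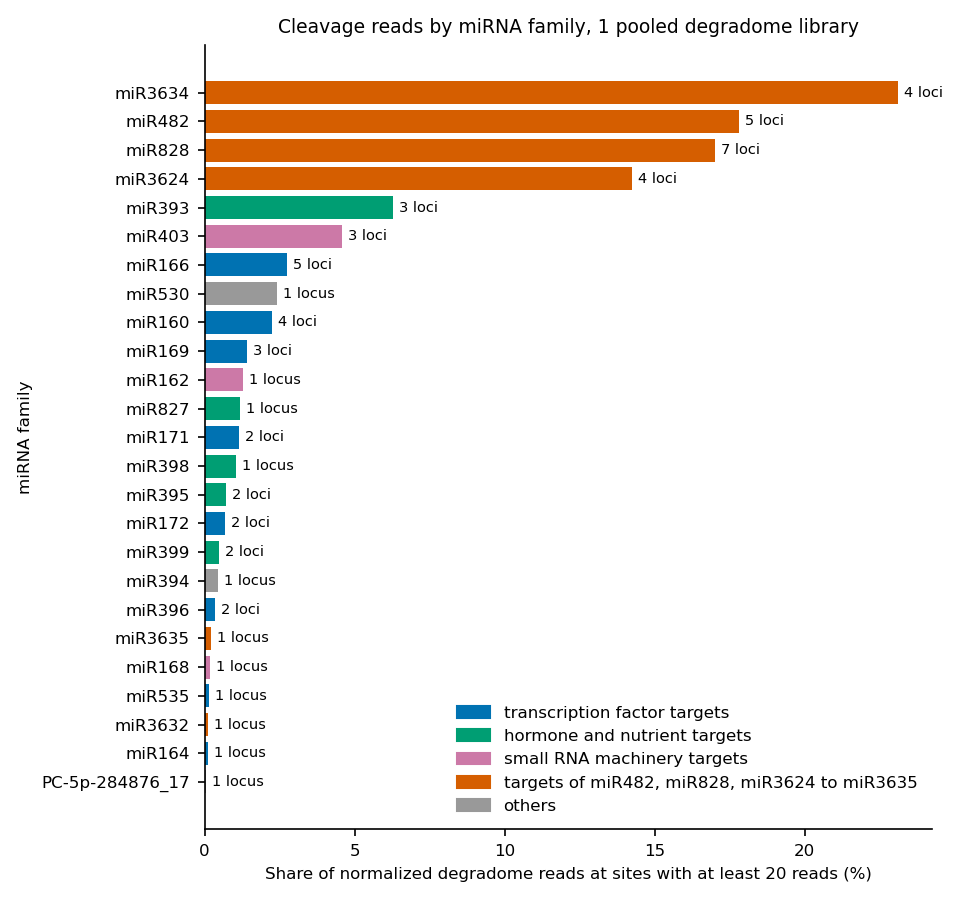
Share of normalized degradome reads (%) at sites with at least 20 raw reads for each of 25 miRNA families in 1 pooled library, with the number of cleaved loci beside each bar and the bar color giving the class of the family. The 4 longest bars, miR3634, miR482, miR828 and miR3624, lie between 14.3 and 23.1%, and the next, miR393, at 6.28%.

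By the class of the miRNA family, the 6 families miR3624, miR3632, miR3634, miR3635, miR482 and miR828 held 72.5% of the reads at 22 loci. The 5 families with hormone and nutrient targets (miR393, miR395, miR398, miR399 and miR827) held 9.70% at 9 loci. The 8 families known for transcription factor targets held 8.84% at 20 loci, the small RNA machinery families miR162, miR168 and miR403 6.001% at 5 loci, and the remaining 3 families 2.91% at 3 loci. Transcription factor families thus made up 33.9% of the loci. Guides of 22 nt held 41.2% of the reads, guides of 21 nt 34.9%, and guides of 23 nt 23.5%, of which most was miR3634.

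Reads were also unevenly spread over loci. A single locus, MSTRG.12158, held 17.6% of the normalized reads, and the 12 loci with most reads held 80.2%. At 6 loci the highest site had at least 1000 raw reads, at 23 loci at least 100 but under 1000, and at 30 loci fewer, with a median of 94 raw reads. Of the 58 loci in the expression table, 16 carried no Gene Ontology (GO) term, and these held 58.8% of the reads. GO terms of DNA binding or transcription were listed for 20 loci, which held 8.65% of the reads. The reads chose the members, so these values are a description of 1 library.

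The sites that passed 20 reads differed in form from the detected sites with fewer. Category 0, where the site is the highest position of its transcript, was given to 101 of 126 sites (80.2%), against 40 of 800 sites with fewer reads (5%). This category is set by the reads and follows in part from the rule. The alignment score, a penalty that is 0 for a perfect match, was not used by the rule. The lowest score over the guides that name a site was taken. It had a median of 2.25 at the member sites and 4 at the other sites, and was at most 2 at 50% of the member sites, against 15.3% of the others. Member sites were named by a median of 2 miRNAs and the other sites by 1, and more guides can give a lower best score. The cut lay at base 10 counted from the 5′ end of any miRNA named there in 94.4% of the member sites and 88.0% of the others. Sites share transcripts and guides, so no test was made.

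At the border of the rule, MSTRG.7265 alone held the sites with 20 and 21 reads, and 15 sites of 7 loci had 19 reads, just outside the rule. Of families with no site above the border, miR156 came closest with 19 reads, followed by miR3631 with 18 and miR408 with 16. Category 0 sites were found at 52 of the 59 loci. The other 7 loci included MSTRG.1579, MSTRG.15765, MSTRG.907 and MSTRG.7265, whose mean levels of 50.1 to 1007 FPKM were among the highest of all members. The rest of the 7, MSTRG.8993, MSTRG.5672 and MSTRG.10620, had means of 12.7, 9.42 and 8.48 FPKM.

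FPKM, fragments scaled to transcript length and library size, is a level per length. Mean FPKM of the cleaved loci over the 6 RNA-seq libraries lay between 0.285 and 1007, with a median of 4.76. Across the 58 loci, the rank correlation of the highest raw reads with mean FPKM was -0.0993 (Spearman's rho), given as a description because the loci share 1 degradome library and some share reads. Of the 9 loci with most raw reads, 6 had a mean under 5 FPKM. VIT_14s0006g03100 had 1074 raw reads at a mean of 0.625 FPKM, while MSTRG.1579 had 28 raw reads at 1007 FPKM.

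**Figure D2:**
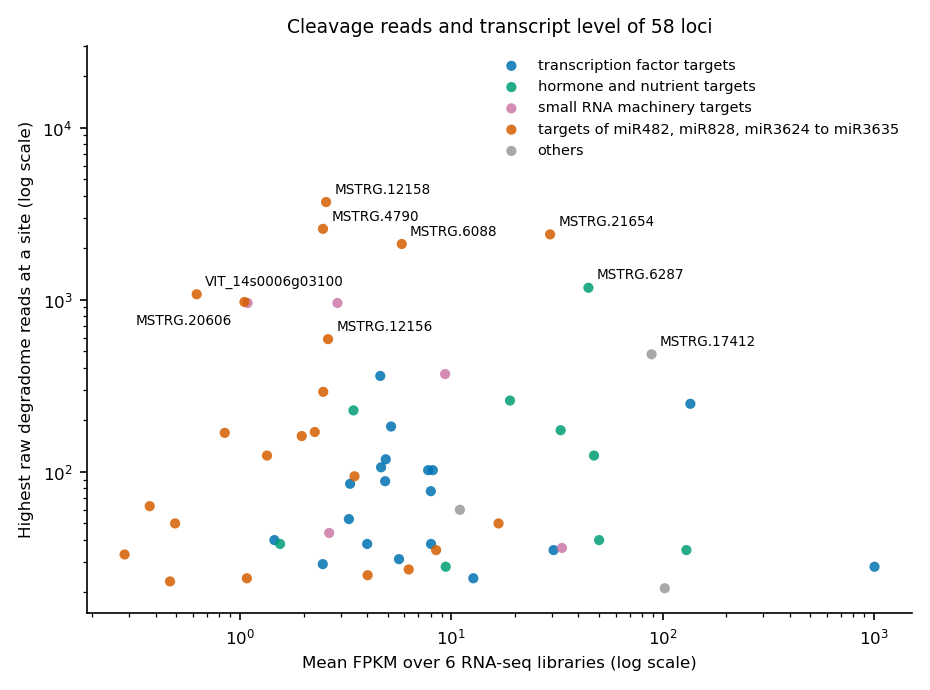
Highest raw degradome reads at a site (log scale) against mean FPKM over the 6 RNA-seq libraries (log scale) for 58 cleaved loci, each point a locus and its color the class of its miRNA family. MSTRG.12158 and MSTRG.4790 lie at the top with 3691 and 2578 reads at means of 2.56 and 2.47 FPKM.

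Transcript levels in Vs hybrids and Vv plants were compared to ask whether the cleaved loci differed between the grafts. They were tested with limma on log2(FPKM + 1) over all 15447 genes whose mean reached 1 FPKM, and 52 of the 58 cleaved loci passed this filter. Of these 52, 1 passed an adjusted p of 0.05 (1.92% of them), beside 0.44% of all tested genes, and it was lower in Vs hybrids, beside 0.22% of all genes lower and 0.22% higher. Those 34 higher and 34 lower genes became 38 and 15 with median-ratio scaling, and 35 and 17 with quantile normalization. At an unadjusted p of 0.05, 13 of the 52 were lower and none was higher, which is 25.0%, beside 17.1% of all genes lower and 3.85% higher. This split depended on the scaling and the filter, with 9 lower and 1 higher under median-ratio scaling, 10 and 1 under quantile normalization, and 14 and 3 when all 58 loci were fitted with no filter. The Vs and Vv libraries did not overlap at 15 of the 52 loci, each of them lower in Vs hybrids (28.8%), beside 31.8% of all genes, of which 26.2% were lower and 5.55% higher. Of the 6 cleaved loci under the filter, 3 did not overlap and these were higher in Vs hybrids. The shares of all genes cover only genes that passed the filter. For genes under it no share was taken, and their levels are low, so this count is a description. The median log2 fold change of the 52 loci was -0.39, against -0.25 over all tested genes. Median-ratio scaling put these medians at -0.15 and -0.013 and quantile normalization at -0.21 and -0.068, and under either no cleaved locus passed.

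Several facts of the libraries bear on all these levels. Summed FPKM was 520529 to 582510 in the Vs libraries and 439752 to 461260 in the Vv libraries. The leaf markers found in the table, 5 loci of 4 symbols, summed to 4454, 3798 and 5862 FPKM in Vs libraries and to 2986, 2947 and 462 FPKM in Vv libraries, so that Vv replicate 3 was lowest. The phloem marker APL lay between 3.18 and 5.61 FPKM in Vs and between 1.58 and 3.20 FPKM in Vv libraries, and no berry marker symbol was matched. None of these markers was at 0 in all libraries, and their part in the differences was not tested. The deposited gene IDs limit the reading further: in a supplementary table of the study, 561 of 568 sets of values were found in the deposited table, but only 3 under the same gene ID. Of the cleaved loci, 1 was there by its values and 1 by its ID, and 0 under the same ID. The study describes the leaf markers LHCB5 (MSTRG.10998), LHCA1 (MSTRG.4497) and LHCA2 (MSTRG.1081) as down in Vs hybrids. Under these IDs the deposited means were 1557, 1016 and 1930 FPKM in Vs and 595, 434 and 945 FPKM in Vv libraries. None passed (adjusted p = 0.256, 0.310 and 0.316 from limma), and Vv replicate 3 was lowest at 128, 63.9 and 234 FPKM. The study describes low FPKM for most of its light-harvesting genes, so its values differ from these, and no change of direction can be read. In the deposited pairing used here, genes of antenna proteins, proteasome and ribosome had median levels at the 96.9th, 93.1st and 93.0th percentile of all genes.

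Targets of transcription factor families came from miR160, miR164, miR166, miR169, miR171, miR172, miR396 and miR535. The class follows the family of the miRNA, so that it also includes MSTRG.439, with jasmonate-signaling GO terms, and MSTRG.1579, an oxidoreductase by its GO terms. miR166 cut 5 loci, led by REV (MSTRG.16608), a class III homeodomain-leucine zipper gene of organ polarity and vascular development in Arabidopsis, with 360 raw reads. REV lay at 4.33, 3.74 and 4.52 FPKM in Vs libraries and at 4.19, 6.35 and 4.57 FPKM in Vv libraries. The groups overlapped. ATHB-8 and ATHB-15, of the same gene class, shared their 102 reads.

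miR160 cut 4 loci, among them ARF16 with 183 reads and ARF10 with 118 reads, which are auxin response factors that repress transcription in Arabidopsis. ARF16 was at 4.09, 5.45 and 4.34 FPKM in Vs libraries and at 7.12, 5.54 and 4.61 FPKM in Vv libraries. The third, listed as ORF164 (MSTRG.9665), was at 2.11, 4.20 and 3.79 FPKM in Vs libraries and at 5.45, 6.55 and 5.85 FPKM in Vv libraries. It was the only tested locus of this class in which the groups did not overlap (log2 fold change -0.70, SE 0.25, adjusted p = 0.204 from limma). Of the 19 tested loci of this class none passed, 13 had a log2 fold change below 0 and 6 above, and the median was -0.25, beside -0.25 over all genes. After median-ratio scaling 10 were below 0 and 9 above.

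miR169 is known to cut NF-Y transcription factor subunits. MSTRG.19941, with a CCAAT-binding complex term, had 35 reads at sites named by 7 miR169 guides, whereas MSTRG.439 had 248 reads at a site named by other miR169 guides with other seeds. MSTRG.439 was at 151, 135 and 121 FPKM in Vs libraries and at 161, 152 and 92.4 FPKM in Vv libraries. The site in MSTRG.1579 was named by vvi-MIR169w-p3_2ss13TC18GC, which had 1 read in 1 of the 6 small RNA libraries. The miR172 targets MSTRG.4463 and RAP2.7, of the AP2 type in Arabidopsis, had 77 and 38 reads, and the miR396 target AtGRF9 had 40.

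Hormone and nutrient targets were led by miR393, whose known targets in Arabidopsis are the auxin receptors TIR1 and AFB. Both loci of this family with auxin-signaling GO terms, MSTRG.17675 and MSTRG.5672, had 174 and 28 reads. The site with most reads, 1172, lay in MSTRG.6287 (VIT_14s0068g01330), which carries no GO term. It was at 25.6, 34.5 and 44.6 FPKM in Vs libraries and at 49.5, 56.1 and 57.2 FPKM in Vv libraries, so that the groups did not overlap (log2 fold change -0.65, SE 0.26, adjusted p = 0.228 from limma). MSTRG.5672 was at 4.40, 5.09 and 7.46 FPKM in Vs libraries and at 14.3, 11.01 and 14.3 FPKM in Vv libraries (-1.11, SE 0.24, adjusted p = 0.133 from limma). MSTRG.17675 overlapped between the groups.

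The miR827 target MSTRG.12589, with a transmembrane transport term, had 259 reads. It was at 11.7, 14.1 and 11.8 FPKM in Vs libraries and at 23.1, 29.7 and 23.4 FPKM in Vv libraries, without overlap, and did not pass (log2 fold change -0.96, SE 0.20, adjusted p = 0.128 from limma). The miR398 target MSTRG.2395, an electron carrier of the plasma membrane by its terms, had 227 reads. Its level of 0.376, 1.98 and 16.6 FPKM in Vs libraries and 0.395, 0.951 and 0.391 FPKM in Vv libraries was set by Vs replicate 3. The miR395 target MSTRG.15623, a sulfate assimilation enzyme, had 124 reads and was at 36.7, 22.9 and 22.6 FPKM in Vs libraries and at 135, 44.8 and 22.1 FPKM in Vv libraries. The miR399 site with most reads, 40, lay in MSTRG.15765, listed as putative ripening-induced protein 1. That site had a score of 4 and category 2, and only vvi-MIR399i-p5 named it. MSTRG.5327 had 38 reads at category 0 sites with a best score of 1.5. These were named by 4 other miR399 guides, whose seed differs from that of vvi-MIR399i-p5. MSTRG.15765 was listed at 0 in replicate 1 of both groups, and otherwise at 36.8 and 34.8 FPKM in Vs libraries and at 92.3 and 137 FPKM in Vv libraries.

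Small RNA machinery targets were DCL1, the Dicer that cuts miRNAs from their precursors, and 4 loci with GO terms of gene silencing by RNA. DCL1 (MSTRG.7256) had 369 reads at the miR162 site. It was at 4.68, 7.31 and 6.71 FPKM in Vs libraries and at 10.8, 14.3 and 12.4 FPKM in Vv libraries. The groups did not overlap, and the difference did not pass the adjusted threshold (log2 fold change -0.91, SE 0.23, adjusted p = 0.153 from limma). MSTRG.9343, cut at the miR168 site with 36 reads, was at 23.04, 28.3 and 28.1 FPKM in Vs libraries and at 38.5, 41.8 and 40.7 FPKM in Vv libraries (-0.59, SE 0.19, adjusted p = 0.183 from limma). Of the 5 tested loci of this class 4 were below 0, or 3 with median-ratio scaling. In Arabidopsis miR168 cuts AGO1 and miR403 cuts AGO2.

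The miR403 loci MSTRG.1818 and MSTRG.1819 carry the same locus tag and shared 956 raw reads, so that each held 478 normalized reads. MSTRG.1818 was at 3.91, 4.88 and 2.34 FPKM in Vs libraries and at 2.73, 0.823 and 2.69 FPKM in Vv libraries, and MSTRG.1819 at 0.837, 0.742 and 1.51 FPKM in Vs libraries and at 0.760, 1.13 and 1.55 FPKM in Vv libraries. Both overlapped between the groups. Of a wider list of 49 symbols of miRNA production, loading and turnover, 19 were found and 17 tested. None passed the adjusted threshold in either direction. At an unadjusted p of 0.05, 2 of the 17 were lower in Vs hybrids, DCL1 and TGH, and none was higher. Of all tested genes, 17.1% were lower and 3.85% higher at this threshold. A log2 fold change below 0 was found in 14 of 17, or in 10 of 17 after median-ratio scaling. The median of -0.28 stood beside -0.25 over all genes.

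The miR3634 loci held the most reads, and 1 of them was the cleaved locus that passed the test. MSTRG.12158 (tags VIT_19s0085g00460 to VIT_19s0085g00480, on chromosome 19 by the tags) had 3691 raw reads at a site with an alignment score of 2.5. It was at 0.578, 0.594 and 0.414 FPKM in Vs libraries and at 3.79, 4.63 and 5.33 FPKM in Vv libraries. The 3 Vs libraries were all far below the 3 Vv libraries, with means of 0.529 ± 0.0999 and 4.59 ± 0.771 FPKM (SD, n = 3 each). The log2 fold change was -1.86 (SE 0.23, adjusted p = 0.0373 from limma), lower in 3 of 3 Vs libraries. It reached the filter of 1 FPKM only through the Vv libraries, where it was high, while loci at low levels in both groups were not tested, and with no filter its adjusted p was 0.0843. It passed in none of the 6 fits that left out 1 library, with adjusted p between 0.0753 and 0.173, and it was at 0.0564 with median-ratio scaling and 0.0646 with quantile normalization.

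MSTRG.12156 and MSTRG.12157 carry neighboring tags (VIT_19s0085g00410 to VIT_19s0085g00450) and membrane terms, and were cut at the same guide's sites with 589 and 124 reads. MSTRG.12156 was at 1.27, 1.45 and 1.28 FPKM in Vs libraries and at 3.06, 4.01 and 4.596 FPKM in Vv libraries. MSTRG.12157 was at 0.621, 0.197 and 0.0237 FPKM in Vs libraries and at 2.20, 2.66 and 2.36 FPKM in Vv libraries. In both the Vs libraries lay below every Vv library, and neither passed (adjusted p = 0.129 and 0.126 from limma). Like MSTRG.12158, MSTRG.12157 reached the filter of 1 FPKM only through the Vv libraries, where it was high, with means of 0.281 FPKM in Vs and 2.41 FPKM in Vv libraries. The fourth locus, MSTRG.12926, has no tag, 50 reads and a level below the filter.

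**Figure D3:**
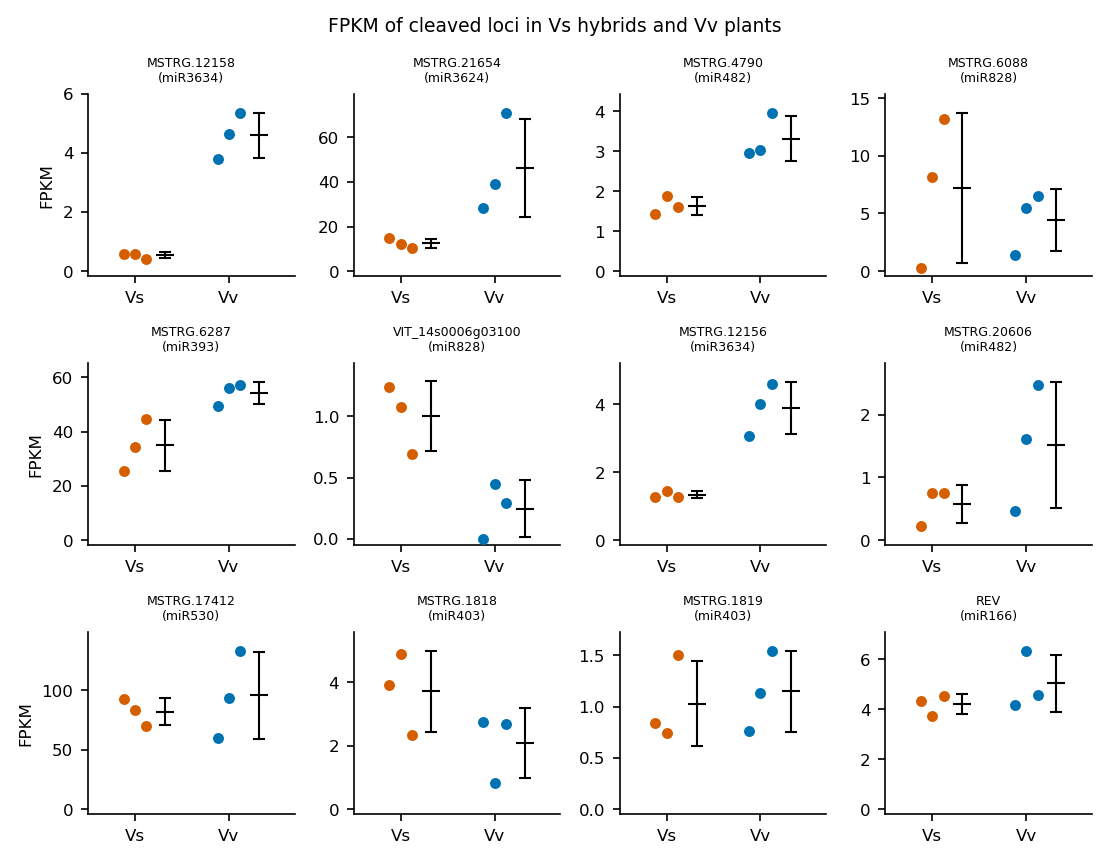
FPKM of the 12 loci with most normalized degradome reads, with each of 3 Vs and 3 Vv libraries as a point and the mean with its SD as the black bar beside them. MSTRG.12158 lies at 0.414 to 0.594 FPKM in Vs and 3.79 to 5.33 FPKM in Vv libraries, while REV and MSTRG.17412 overlap.

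miR482 cut 5 loci. MSTRG.4790, with 2578 reads, and MSTRG.4787, with 291 reads, share the tag VIT_13s0047g00100 and have no GO term. MSTRG.4790 was at 1.42, 1.87 and 1.60 FPKM in Vs libraries and at 2.95, 3.03 and 3.96 FPKM in Vv libraries (log2 fold change -0.71, SE 0.21, adjusted p = 0.177 from limma). MSTRG.4787 was at 0.830, 1.52 and 1.07 FPKM in Vs libraries and at 3.12, 4.63 and 3.72 FPKM in Vv libraries. The groups did not overlap at either locus. MSTRG.20606, with 969 reads and no annotation, was at 0.232, 0.747 and 0.759 FPKM in Vs libraries and at 0.470, 1.62 and 2.48 FPKM in Vv libraries, with overlap. MSTRG.10620, a membrane protein gene by its terms with 35 reads, was at 2.997, 3.07 and 2.67 FPKM in Vs libraries and at 8.17, 15.4 and 18.6 FPKM in Vv libraries (-1.87, SE 0.31, adjusted p = 0.0908 from limma). It was chosen here after its values were seen, as the locus that passed when Vv replicate 1 was left out (0.0448).

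miR828 cut 7 loci. MSTRG.6088, which has no annotation, matched vvi-miR828a without a penalty (score 0) and had 2105 reads at position 193 of its transcript, with 93 more at position 194 named by mes-miR828a_L+1, the guide longer by 1 base at its 5′ end. It was at 0.251, 8.19 and 13.2 FPKM in Vs libraries and at 1.42, 5.45 and 6.499 FPKM in Vv libraries, so that in both groups replicate 1 was lowest. VIT_14s0006g03100, with 1074 reads, was at 1.24, 1.07 and 0.690 FPKM in Vs libraries and at 0, 0.451 and 0.293 FPKM in Vv libraries. It was higher in every Vs library but under the filter, and with no filter its adjusted p was 0.231 from limma. MSTRG.231 and VIT_17s0000g08480 lay the same way and under the filter, and MSTRG.231 was listed at 0 in all Vv libraries and at 1.39, 0.668 and 0.186 FPKM in Vs libraries. VIT_09s0002g01380, VIT_17s0000g08480 and MSTRG.2026 carry transcription regulation terms, and their reads, 168, 33 and 27, were far fewer than those of MSTRG.6088.

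miR3624 cut 4 loci, and all 4 carry GO terms of transition metal ion binding or homeostasis. They held 14.3% of the reads. MSTRG.21654, on an unplaced scaffold by its tags, had 2394 reads at a site with a score of 4, in 7 transcripts. It was at 14.7, 12.4 and 10.4 FPKM in Vs libraries and at 28.4, 39.3 and 71.1 FPKM in Vv libraries. The groups did not overlap, and it did not pass (log2 fold change -1.72, SE 0.36, adjusted p = 0.130 from limma). The other miR3624 loci, MSTRG.22503, MSTRG.21301 and MSTRG.21300, had 170, 94 and 23 reads, and their groups overlapped. The miR3635 target MSTRG.8945, a lipid transport ATPase by its terms, had a perfect match and 50 reads. The miR3632 target MSTRG.4083, with defense response terms, had 25 reads. Of the 16 tested loci of these 6 families 13 were below 0 and 3 above (median log2 fold change -0.66), beside 10432 of 15447 genes below 0 and a median of -0.25. As many of the 16 lay below and above with median-ratio scaling (median -0.49). All 6 cleaved loci under the filter belong to these families, and 5 of them had a higher mean in Vs hybrids. With no filter, 14 of the 22 loci were below 0 and 8 above, with a median of -0.45, beside -0.097 over all genes.

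Among the remaining loci, miR530 named sites in MSTRG.17412, a large-subunit ribosomal protein gene by its terms, at positions 2 bases apart. The site with 481 reads was named by tcc-miR530b_R+1_1ss9CT. The site with 46 reads was named by tcc-miR530b_L+2R-1_1 and by tcc-miR530b_L+2R-1_2, which are listed with identical counts. The printed guides of the 2 sites are shifted against each other by 2 bases, so that their seeds differ but overlap. tcc-miR530b_R+1_1ss9CT had 4.72, 4.98 and 8.02 CPM (miRNA counts scaled to library size) in Vs libraries and 3.38, 3.85 and 1.40 CPM in Vv libraries. These are far below the values of tcc-miR530b_L+2R-1_1, which are given further on. MSTRG.17412 was at 92.2, 83.6 and 69.6 FPKM in Vs libraries and at 60.1, 93.6 and 133 FPKM in Vv libraries. The miR394 target MSTRG.1092, with SCF complex terms, had 60 reads and was at 1.74, 2.54 and 23.1 FPKM in Vs libraries and at 29.7, 3.70 and 5.20 FPKM in Vv libraries.

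The levels of the guiding miRNAs were compared to ask whether they differed between the grafts. They were tested with edgeR's quasi-likelihood test over 332 miRNA entries, and the 91 names made 76 entries with distinct counts, of which 59 were tested. Of these, 2 passed an adjusted p of 0.05 (3.39%), beside 6.02% of all tested miRNAs, with 1 higher and 1 lower in Vs hybrids, beside 2.11% and 3.92% of all. At an unadjusted p of 0.05, 5 were higher and 5 lower in Vs hybrids, beside 25.9% of all miRNAs in either direction. The Vs and Vv libraries did not overlap in 9 of the 59, 5 higher and 4 lower, beside 31.9% of all miRNAs.

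vvi-miR164a, whose family cuts NAC transcription factor mRNAs in Arabidopsis, was at 1414, 1373 and 1154 CPM in Vs libraries and at 5316, 5360 and 4171 CPM in Vv libraries. It was lower in 3 of 3 Vs libraries (log2 fold change -1.91, SE 0.35, adjusted p = 0.0156 from edgeR), but lost the call in some alternatives, among them when Vs replicate 2 (0.0736) or Vs replicate 3 (0.0665) was left out, or when at least 10 counts in every library were required (0.0828). Its site, in MSTRG.8993, a DNA-binding gene by its terms, had 24 reads. MSTRG.8993 was at 1.17, 14.8 and 11.1 FPKM in Vs libraries and at 4.48, 15.1 and 29.7 FPKM in Vv libraries, with overlap.

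vvi-miR169v was at 263, 77.7 and 71.4 CPM in Vs libraries and at 16.3, 14.1 and 2.09 CPM in Vv libraries. It was higher in 3 of 3 Vs libraries (log2 fold change 3.64, SE 0.85, adjusted p = 0.0379 from edgeR), and did not pass in any fit with 1 library left out (0.0557 to 0.102). Its counts were small, with 3 to 29 reads in Vv libraries. It reached the filter only with the Vs libraries, where it was high. When at least 10 counts in every library were required, it was not tested. Its target MSTRG.19941 was at 28.4, 32.1 and 47.6 FPKM in Vs libraries and at 29.2, 29.8 and 15.9 FPKM in Vv libraries. The groups of the target overlapped. Of the other 6 guides named at this site 5 were tested, including vvi-miR169e_R-2 and vvi-miR169x_R-1, which have identical counts and entered the test once. All 5 had a log2 fold change below 0 and did not pass, between -0.16 for vvi-miR169e_R-2 and -3.05 for vvi-miR169d (adjusted p = 0.158 from edgeR).

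tcc-miR530b_L+2R-1_1 was at 11695, 8026 and 9570 CPM in Vs libraries and at 4074, 2604 and 1110 CPM in Vv libraries. All Vs libraries lay above all Vv libraries (log2 fold change 1.91, SE 0.49), with an adjusted p of 0.0544 from edgeR and 0.0126 from DESeq2. It passed in 3 alternatives and did not pass in 8. With 1 library left out its adjusted p lay between 0.0355 and 0.129 from edgeR. The candidate PC-5p-284876_17 had 0 reads in the 3 Vs libraries and 11, 17 and 5 in the Vv libraries, under the filter, and all of its sites lay at the border of the rule.

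**Figure D4:**
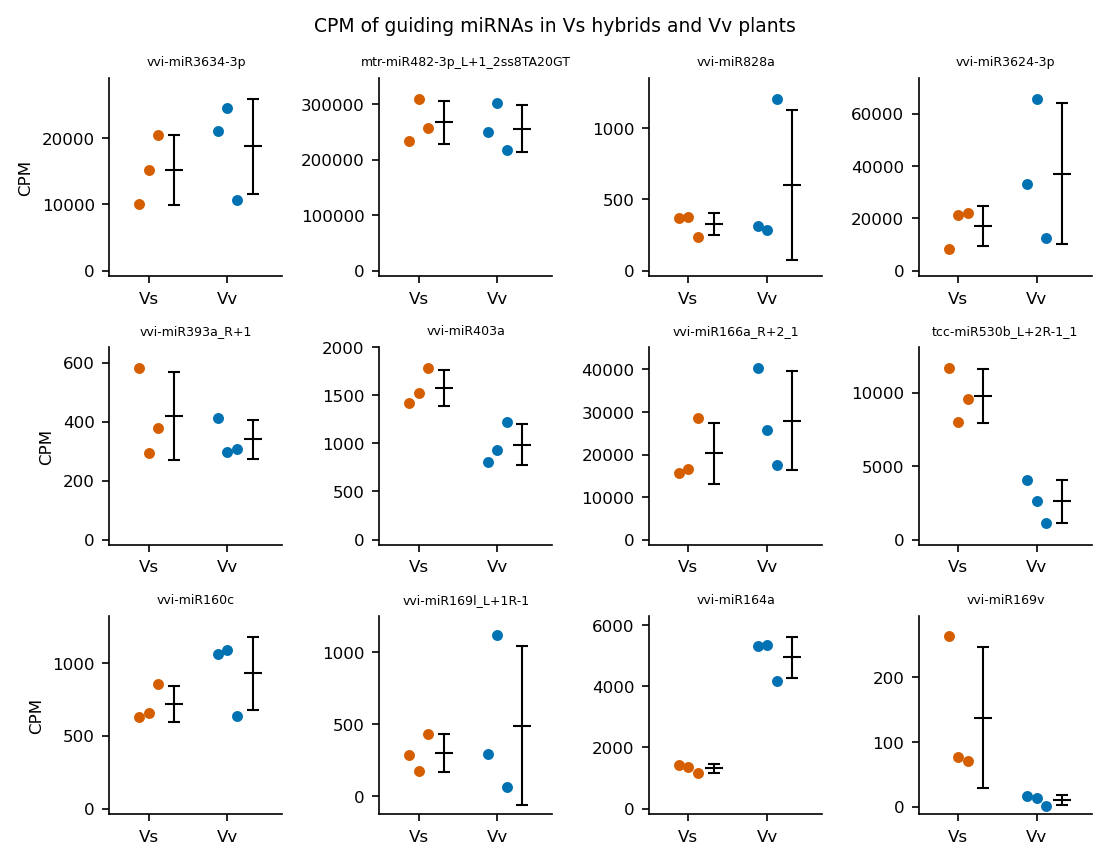
CPM of 12 guiding miRNAs, the leading miRNA of the 10 families with most normalized reads and the 2 that passed the adjusted threshold, with each of 3 Vs and 3 Vv libraries as a point and the mean with its SD as the black bar. vvi-miR164a lies at 1154 to 1414 CPM in Vs and 4171 to 5360 CPM in Vv libraries, and mtr-miR482-3p_L+1_2ss8TA20GT overlaps.

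The guides of the 4 leading families did not pass. The miR482 guide mtr-miR482-3p_L+1_2ss8TA20GT was by far the most abundant, at 233780, 309748 and 257292 CPM in Vs libraries and at 249103, 301293 and 216701 CPM in Vv libraries. vvi-miR3634-3p was at 9983, 15129 and 20449 CPM in Vs libraries and at 21027, 24506 and 10636 CPM in Vv libraries. vvi-miR3624-3p was at 8107, 21183 and 21857 CPM in Vs libraries and at 33137, 65791 and 12307 CPM in Vv libraries. vvi-miR828a was at 369, 374 and 237 CPM in Vs libraries and at 312, 284 and 1208 CPM in Vv libraries, where Vv replicate 3 stood apart. Across the 25 families, the rank correlation of normalized reads with the CPM of the leading miRNA was 0.455 (Spearman's rho), as a description.

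For 47 loci both the locus and a miRNA named at its site of most raw reads could be tested, and the miRNA of highest CPM was taken. The log2 fold changes had opposite signs in 14 pairs, with the locus below 0 and the miRNA above 0 in 7 and the other way round in 7. They had the same sign in 33 pairs, both below 0 in 29 and both above 0 in 4. This pairing was chosen after the data were seen. The leading miRNA of the family, which at some loci is not named at the site, gave 22 of 51 pairs with opposite signs. Loci of 1 family share a miRNA, and the median of all genes lay below 0. Among the 59 tested guides 39 were below 0, beside 170 of all 332 tested miRNAs. With most loci and most guides below 0, many pairs share that sign without any link, so these counts are a description. DCL1 and vvi-miR162 were both below 0, and so were MSTRG.12158 and vvi-miR3634-3p.

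**Figure D5:**
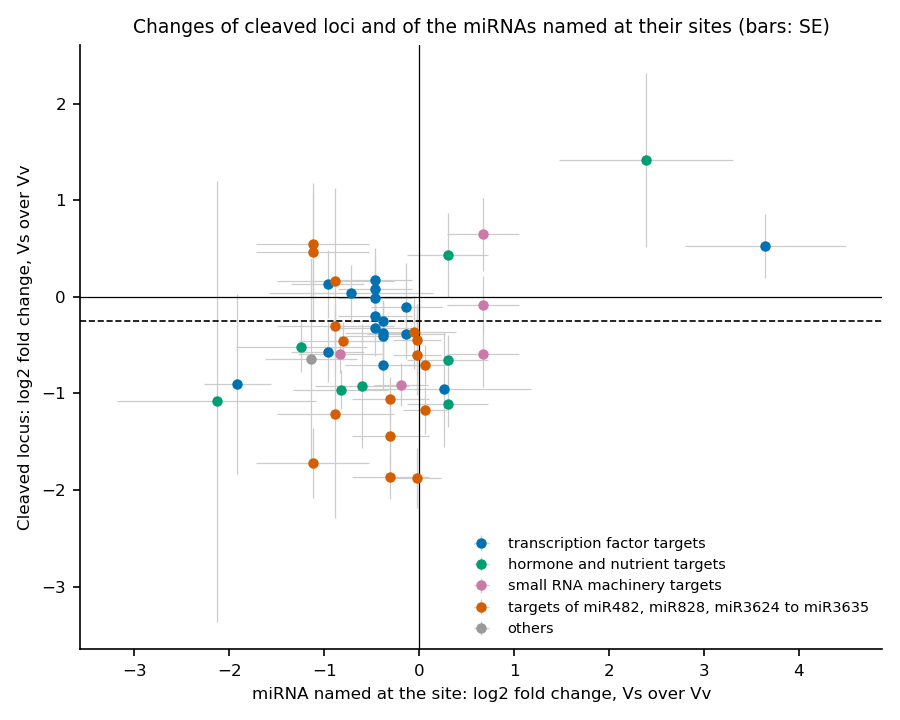
Log2 fold change (Vs over Vv) of 47 cleaved loci against that of the miRNA of highest CPM named at their site of most raw reads, with bars of 1 SE, the color giving the class of the family and the dashed line the median of all tested genes at -0.25. Of the 47 points 29 lie in the lower left and 4 in the upper right.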

How the data were processed

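The members and the gene lists were chosen with earlier results of these data known. The replicates were separate plants. The authors counted degradome reads at predicted cleavage positions with CleaveLand and oligomap in 1 pooled library, and deposited raw read counts, normalized reads (estimated counts, split over the transcripts a read maps to), a category and an alignment score. The authors estimated FPKM with HISAT and StringTie. The sources used here do not give a genome build. The deposited miRNA values were estimated counts from ACGT101-miR, between 1027871 and 1322783 per Vs library and 1376351 and 1738257 per Vv library, with low counts limiting precision.

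Transcripts were joined to loci by the table's transcript lists (115) or symbol (3), and 1 could not be joined. FPKM was tested with limma 3.58.1 (trend) on log2(FPKM + 1) for genes whose mean reached 1 FPKM, so fold changes of low genes are understated. Estimated miRNA counts were rounded, entries with identical counts entered once, and tested with edgeR 4.0.16 (TMM, filterByExpr), with DESeq2 1.42.0 as an alternative. Adjustment was by Benjamini-Hochberg over all features tested. Fits were tested on simulated data. For naming, the rule took the 12 loci with most normalized reads and the locus with most raw reads of each family. It also took each family's miRNA of highest CPM and all that passed. Not all of these are described: VIT_04s0023g01380 of miR171, MSTRG.3127 of miR535 and the levels of miRNAs such as vvi-miR398b are left out. Other loci were named as examples of a family after their values were seen. Alternatives covered scaling, pseudocount, filters, tool, replicate block, each library left out, and the read, category and score limits. The authors' own comparison columns were not used.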

Additional observations from a re-analysis of the deposited data

How the results depend on the processing

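Beyond the values in the report, the number of cleaved loci that passed was 1, against 0 by median ratios, by quantiles and with no filter, and 0 to 1 when 1 library was left out. A mean of at least 5 FPKM also gave 0, because MSTRG.12158, at a mean of 2.56 FPKM, was then not tested. The number of all genes that passed was 68, against 35 with no filter, 45 with a mean of at least 5 FPKM and 19 to 73 with 1 library left out. Of genes past the threshold, 34 were higher and 34 lower, against 38 and 15 by median ratios and 35 and 17 by quantiles. The number of guiding miRNAs that passed was 2, against 4 with DESeq2, 0 with at least 10 counts in every library and 0 to 2 with 1 library left out. Of all miRNAs 20 passed, against 45 with DESeq2, 0 with at least 10 counts and 1 to 22 with 1 library left out. Over all tested features, deviations of same-numbered Vs and Vv libraries correlated at 0.169, -0.0468 and 0.0375 in RNA-seq and at -0.176, 0.00935 and -0.108 in small RNA. These correlations cannot show whether same-numbered libraries share a factor at single loci, which was not tested. With the replicate number as a block, 0 cleaved loci, 8 genes, 0 guiding miRNAs and 0 miRNAs passed, and the adjusted p of vvi-miR164a was 0.0531.

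With at least 10 reads there were 194 sites, and with at least 50 reads 80 sites at 38 loci and a miR3634 share of 23.99%. With category 0 sites only this share was 23.7%. With an alignment score of at most 3 the shares were 30.1% for miR3634, 15.9% for miR482, 22.2% for miR828, 0.138% for miR3624, 8.26% for miR393 and 6.01% for miR403, since the main miR3624 site has a score of 4. With the highest raw reads of each locus they were 20.5% for miR3634, 12.4% for miR3624 and 9.01% for miR403.

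Of 586 log2 fold changes of named loci and miRNAs under an alternative, 36 changed sign, in 16 loci or miRNAs, none of which passed the threshold. After median-ratio scaling these were MSTRG.17412 (0.13), MSTRG.1819 (0.064), MSTRG.16608 (0.042) and MSTRG.4463 (0.15), and with quantile normalization MSTRG.17412 (0.054) and MSTRG.4463 (0.10). With a pseudocount of 0.1 MSTRG.6088 was at -0.18. With the replicate block vvi-miR169l_L+1R-1 was at 0.014, vvi-miR3632-3p at 0.028 and csi-miR535_1ss7TA at -0.19, and with no filter mtr-miR482-3p_L+1_2ss8TA20GT was at -0.15. The cause was not tested. With 1 library left out, log2 fold changes ranged from -0.53 to 1.22 for MSTRG.6088, from -0.45 to 0.11 for MSTRG.17412, from -0.25 to 0.046 for MSTRG.1819, from -0.21 to 0.18 for MSTRG.439, from -0.60 to 0.16 for MSTRG.4463, from -1.63 to 0.19 for MSTRG.1092, from -3.36 to 0.65 for MSTRG.15765, from -0.36 to 0.60 for MSTRG.7265, from -1.24 to 0.76 for vvi-miR169l_L+1R-1, from -0.33 to 0.32 for vvi-miR172d_L-2, from -0.28 to 0.42 for vvi-miR3632-3p, from -0.065 to 0.50 for vvi-miR393a_R+1, from -0.059 to 0.20 for mtr-miR482-3p_L+1_2ss8TA20GT, from -0.27 to 1.03 for csi-miR535_1ss7TA and from -1.22 to 0.13 for vvi-miR828a.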
